A study of Mus musculus with 12 samples.

Results

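The Hox cluster genes are the homeobox genes of the HoxA, HoxB, HoxC and HoxD clusters. They were taken by symbol, as every gene named Hox, a cluster letter and a paralogue number, which gave 39 of the 35976 genes in the count files: 11 in HoxA, 10 in HoxB, 9 in HoxC and 9 in HoxD. The cells were mouse haematopoietic stem cells (HSCs), sorted without lineage markers and with c-Kit and Sca-1, a gate that also takes in multipotent progenitors. Transcripts were counted by 3′ tag sequencing in 12 libraries, 6 groups of 2. The groups were cells of 2-month-old animals stimulated outside the body with cytokines for 24 hours (stimulated KO and stimulated WT), freshly isolated cells of 24-month-old animals (old fresh KO and old fresh WT), and freshly isolated cells of 2-month-old animals (young fresh KO and young fresh WT). WT is wild type, and KO is the label for animals without Cd38, an enzyme that consumes NAD. The study asked how CD38 acts on these cells at rest, under cytokines and in age. The labels name neither the cytokines nor the strain, and do not say which part of Cd38 was deleted or whether 2 libraries of a group came from separate animals. P-values therefore measure the spread between these libraries, which may be technical.

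Hox genes encode transcription factors that bind DNA through a homeodomain, often together with partners of the TALE family such as PBX and MEIS proteins. Genes with the same number in different clusters are paralogues, and a gene's place along its cluster follows the body axis in the embryo. In blood, HoxA and HoxB genes are active in stem and progenitor cells and are shut down as cells mature. HOXA9 is needed for normal stem cell function and drives leukaemia when overproduced, and HOXB4 expands stem cells when overproduced.

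The libraries held 1600155 to 5164720 counts, and every old library was deeper than every young one. Levels are given as CPM (counts relative to library size, with TMM scaling), and since a 3′ tag counts a transcript once, CPM can be compared between genes without a length correction. Kit lay at 190 to 422 CPM and Ly6a (Sca-1) at 39.2 to 176 CPM, so both genes of the gate were counted in all 12 libraries. Cd38 tags were counted in both genotypes, at 2.31 to 3.58 CPM in stimulated KO against 0.996 to 8.57 CPM in stimulated WT, 13.2 to 19.8 CPM in old fresh KO against 41.4 to 74.3 CPM in old fresh WT, and 31.9 to 62.7 CPM in young fresh KO against 17.5 to 24.5 CPM in young fresh WT. A 3′ tag outside the deleted part checks nothing, so the KO label could not be checked with these values. Xist was counted in 11 libraries and was at 0 in young fresh WT replicate 1, which held Y-linked transcripts at 199.7 CPM. Sex is therefore not matched in any comparison that uses young fresh WT, including those with age and with stimulation. In stimulated cells Y-linked transcripts were at 6.61 and 2.31 CPM in KO, against 0.332 and 0.659 CPM in WT. The source of these low counts was not tested. In bulk samples fewer cells of a type and less RNA per cell cannot be told apart.

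Promoters are shown for Hoxb8 and Hoxb4, which followed Hoxb3 by p-value in the comparison of stimulated cells. The table had no window for Hoxb3. Each line gives the RefSeq window of 250 bases before to 50 bases after a transcript start, on GRCm38.p6. Capitals mark TTTATG, a site of the Cdx type, and TGATNNAT, a site of the type bound by Hox and Pbx proteins together, each searched on both strands.
Hoxb8: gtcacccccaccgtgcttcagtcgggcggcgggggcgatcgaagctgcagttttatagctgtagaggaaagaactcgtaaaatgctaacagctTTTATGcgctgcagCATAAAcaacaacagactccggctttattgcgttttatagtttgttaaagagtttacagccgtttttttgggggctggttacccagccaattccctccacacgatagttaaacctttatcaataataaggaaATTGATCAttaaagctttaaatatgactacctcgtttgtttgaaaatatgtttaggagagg
Hoxb4: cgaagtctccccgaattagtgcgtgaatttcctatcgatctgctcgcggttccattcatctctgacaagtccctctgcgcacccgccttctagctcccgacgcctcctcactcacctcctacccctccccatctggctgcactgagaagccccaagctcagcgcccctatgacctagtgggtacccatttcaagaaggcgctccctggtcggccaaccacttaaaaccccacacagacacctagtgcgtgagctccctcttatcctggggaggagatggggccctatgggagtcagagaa
The Hoxb8 window lies on the plus strand at chr11:96281655-96281954 and holds 2 matches to TTTATG and 1 to TGATNNAT, none of which overlap. The Hoxb4 window lies on the plus strand at chr11:96318017-96318316 and holds neither. RefSeq had 24 windows for 22 of the 39 genes. TTTATG was in 5 of the 24, those of Hoxa7, Hoxb8, Hoxd3, Hoxd4 and a window of Hoxd11, and in 11.9% of all 32851 windows. TGATNNAT was in 4 of the 24, those of Hoxa2, Hoxb1, Hoxb8 and a window of Hoxd11, and in 8.85% of all windows. A match is a description of letters, and Hoxb1, Hoxd3, Hoxd4 and Hoxd11 hold matches and had no count in any library. Cdx1, Cdx2 and Cdx4, which encode the Cdx factors, were at 0 in all 12 libraries.

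Of the 39 genes, 23 had at least 1 count in some library and 16 had none. Detection ran by cluster: 9 of 11 HoxA genes, 8 of 10 HoxB genes, 6 of 9 HoxC genes and 0 of 9 HoxD genes were counted. The 16 genes at 0 were Hoxa11, Hoxa13, Hoxb1, Hoxb13, Hoxc11, Hoxc12, Hoxc13 and the HoxD genes Hoxd1, Hoxd3, Hoxd4, Hoxd8, Hoxd9, Hoxd10, Hoxd11, Hoxd12 and Hoxd13. No gene of paralogue groups 11 to 13, the posterior end of the clusters, had a count. Over the 36612659 counts of the 12 libraries, 0 counts allow a mean level of up to 0.0819 CPM, for counting error only. Single libraries held counts of 10 to 18 Hox genes, and 9.78 to 17.3 when all were thinned to the depth of the shallowest.

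**Figure D1:**
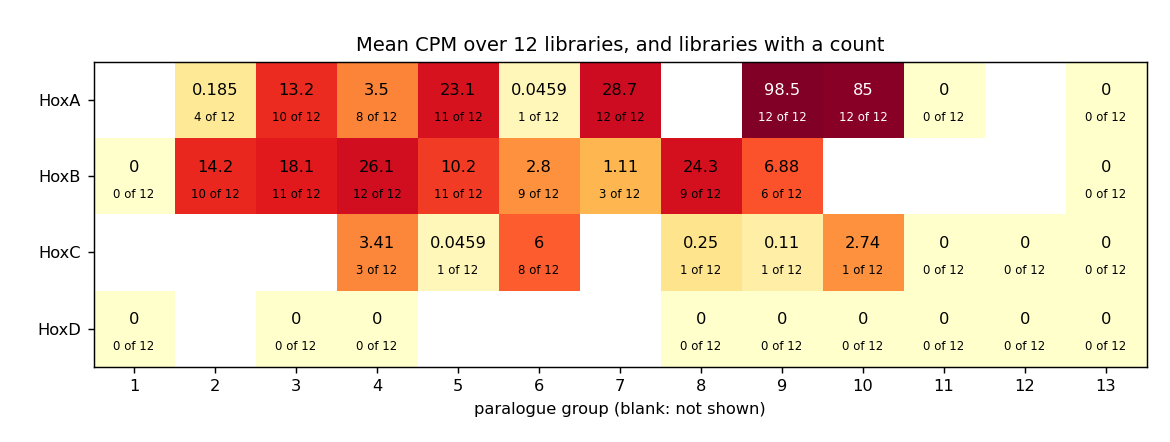
Mean CPM of each Hox gene over the 12 libraries (upper number, and colour on a log scale, darker for higher) with the number of libraries that hold a count (lower number), by cluster (rows) and paralogue group (columns), with blanks where nothing is shown. Hoxa9 and Hoxa10 stand highest at 98.5 and 85.0 CPM, and the HoxD row is at 0 throughout.

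The 12 genes that averaged 5 CPM or more were 5 of HoxA, 6 of HoxB and Hoxc6. In order of their mean over 12 libraries they were Hoxa9 at 98.5 CPM, Hoxa10 at 85.0, Hoxa7 at 28.7, Hoxb4 at 26.1, Hoxb8 at 24.3, Hoxa5 at 23.1, Hoxb3 at 18.1, Hoxb2 at 14.2, Hoxa3 at 13.2, Hoxb5 at 10.2, Hoxb9 at 6.88 and Hoxc6 at 5.997 CPM. The SD over libraries was 36.9 CPM for Hoxa9 and 47.5 CPM for Hoxa10, so these neighbours in the order did not differ beyond their spread. Hoxa9 led in 7 libraries and Hoxa10 in 5, and the leader held 21.2% to 53.5% of a library's Hox counts. Only Hoxa7, Hoxa9, Hoxa10 and Hoxb4 were counted in all 12 libraries.

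Most paralogue groups rested on a single gene. Summed over the clusters, group 9 averaged 105.5 CPM, with 93.4% from Hoxa9, and group 10 averaged 87.7 CPM, with 96.9% from Hoxa10. Hoxb2 made up 98.7% of group 2, Hoxb8 98.98% of group 8 and Hoxa7 96.3% of group 7. The other groups were more mixed, with 57.9% of group 3 from Hoxb3, 79.1% of group 4 from Hoxb4, 69.4% of group 5 from Hoxa5 and 67.8% of group 6 from Hoxc6. The lead in group 6 depended on the samples: Hoxc6 was at 22.8 CPM in young fresh KO, with Hoxb6 at 0.509 CPM, but Hoxb6 was above Hoxc6 in stimulated KO (mean 4.43 against 1.93 CPM) and in old fresh WT (mean 8.53 against 4.34 CPM). Groups 9 to 13 together held 38.8% to 65.5% of a library's Hox counts, groups 5 to 8 held 9.71% to 36.8% and groups 1 to 4 held 4.97% to 30.0%.

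The clusters differed in how evenly they were counted. HoxA held 50.7% to 87.0% of a library's Hox counts (median 71.3%), HoxB 5.86% to 47.4% (median 25.1%) and HoxC 0% to 12.3%. Summed HoxA levels were 199 and 297 CPM in stimulated KO cells, 162 and 222 CPM in stimulated WT cells, 302 and 293 CPM in old fresh KO, 234 and 312 CPM in old fresh WT, 235 and 315 CPM in young fresh KO and 168 and 290 CPM in young fresh WT. KO and WT libraries overlapped in each of the 3 settings. Summed HoxB levels were 79.3 and 116.0 CPM in stimulated KO cells, 33.5 and 31.3 CPM in stimulated WT cells, 198 and 53.1 CPM in old fresh KO, 198 and 291 CPM in old fresh WT, 16.8 and 66.9 CPM in young fresh KO and 69.5 and 90.6 CPM in young fresh WT. HoxB thus spanned a wider range than HoxA and had its highest mean in old fresh WT.

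**Figure D2:**
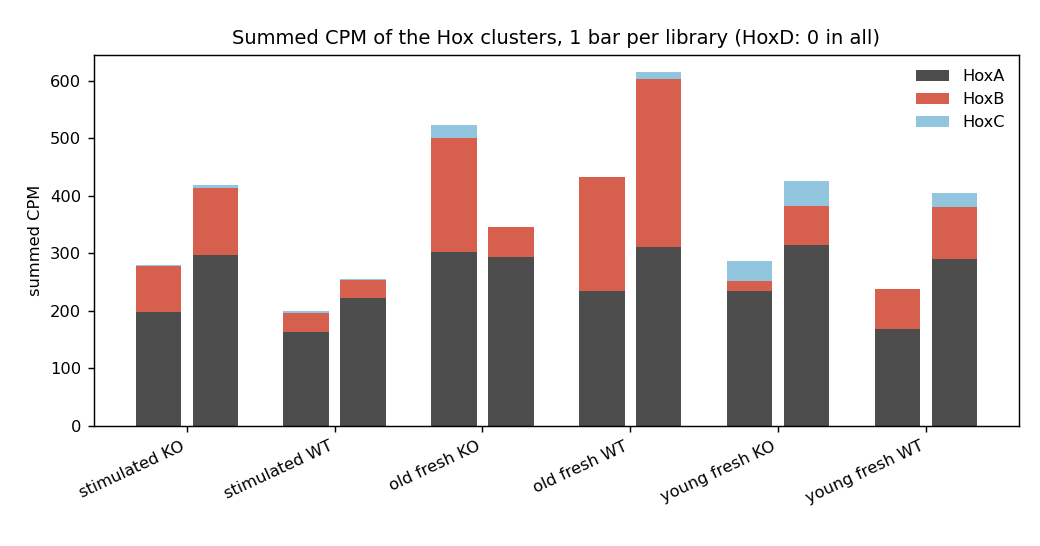
Summed CPM of the HoxA, HoxB and HoxC genes, stacked, with 1 bar for each of the 12 libraries and 2 bars for each group. HoxB makes up 79.3 and 116.0 CPM in stimulated KO, against 33.5 and 31.3 CPM in stimulated WT, and HoxD is 0 in every library.

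The 11 genes with a count but a mean under 5 CPM differed in how many libraries held them. Hoxa4, which acts in axial patterning, had 118 counts in 8 libraries, and Hoxb6 had 112 in 9. Hoxc10 had 63 counts, all in young fresh KO replicate 4. Hoxc4 had 67 counts in old fresh KO replicate 3, 44 in young fresh WT replicate 2 and 1 in stimulated KO replicate 4. Hoxb7 had 34 counts in old fresh WT replicate 2, 8 in stimulated KO replicate 4 and 1 in young fresh KO replicate 4. The rest had 10 counts or fewer in all, among them Hoxc8 with 10, Hoxa2 with 6, Hoxc9 with 4, and Hoxa6 and Hoxc5 with 2 each. Stromal cells of the bone marrow can express HoxC and HoxD genes, and the 10 listed stroma markers summed to 15.2 to 44.8 CPM. Lum was at 0 in all libraries, but Col1a1 was at 19.9 CPM in young fresh KO replicate 3. Cxcl12 was at 30.8 CPM in young fresh KO replicate 4. The sum was 20.4 to 31.4 CPM in young fresh KO, against 29.1 to 31.3 CPM in young fresh WT. The part of stroma in the HoxC counts was not tested.

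Replicates of fresh cells often disagreed on whether a Hox gene was there. Among genes with at least 20 counts in a library of the group, the other replicate had 0 counts for 4 of 13 Hox genes in old fresh KO, 2 of 14 in old fresh WT, 3 of 10 in young fresh KO and 6 of 11 in young fresh WT. In stimulated cells this was 0 of 10 Hox genes in KO and 0 of 6 in WT. The 6 genes in young fresh WT were Hoxa4, Hoxa5, Hoxb3, Hoxb5, Hoxb8 and Hoxc4. Over all genes the share was 15.5%, 16.0%, 14.8% and 10.96% in the same order of fresh groups, and 0.0411% and 0.0317% in stimulated KO and stimulated WT. In fresh cells a Hox gene could thus be at 0 in one replicate and well counted in the other, and each fresh value below stands against that spread.

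**Figure D3:**
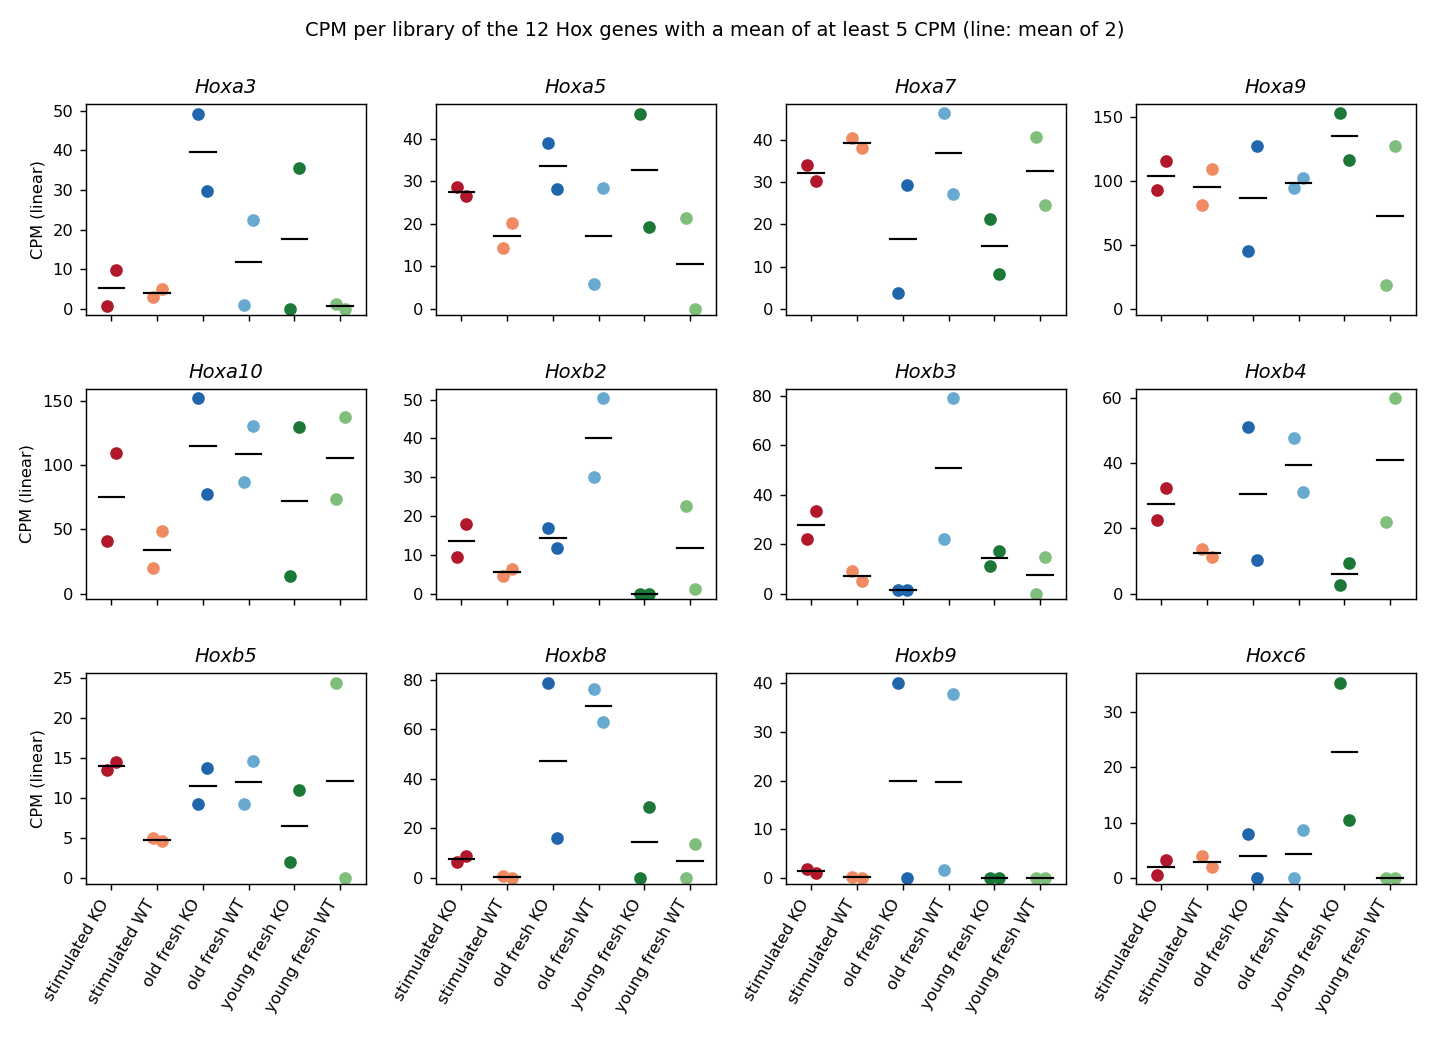
CPM (linear axis) of the 12 Hox genes averaging 5 CPM or more in each of 12 libraries, by group, with the mean of 2 libraries as a line. In stimulated libraries Hoxb5 lies close together, at 13.5 and 14.5 CPM in KO against 4.98 and 4.61 CPM in WT, and Hoxa10 lies apart, at 41.0 and 109 CPM in KO against 19.6 and 48.4 CPM in WT.

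In stimulated cells, the HoxB genes Hoxb3 and Hoxb8 were higher in KO than in WT. Hoxb3, a HoxB gene active in early haematopoietic cells, had 22.03 and 33.4 CPM in stimulated KO, against 9.30 and 5.27 CPM in stimulated WT. Hoxb8, whose forced expression keeps myeloid progenitors immature, had 6.33 and 8.92 CPM in stimulated KO, against 0.664 and 0 CPM in stimulated WT. Both KO libraries lay above both WT libraries for each gene. Hoxb3 rose by a log2 fold change of 1.94 ± 0.40 (SE), with an adjusted p of 0.0262 in edgeR's quasi-likelihood test. Hoxb8 rose by 4.39 ± 1.01 on the log2 scale, with an edgeR adjusted p of 0.0477. Its fold rests on 50 KO counts and 2 WT counts. Scaled to library size, their ratio was 22.7, with an interval of 5.97 to 193 for counting error at the 95% level.

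These were 2 of 13 Hox genes tested, both higher, where 1.23% of the 10494 genes tested were called and 0.762% were called higher. The calls come from a fit of the 4 stimulated libraries, chosen with earlier results of these data known. In a fit of all 12 libraries no Hox gene and no gene at all was called, and the adjusted p was 1 for both genes, at log2 fold changes of 1.92 and 4.36. Limma voom gave adjusted p-values of 0.0632 for Hoxb3 and 0.115 for Hoxb8, and DESeq2 gave 0.0138 and 0.0587. Both calls were lost without KO replicate 3, without KO replicate 4 or without WT replicate 2, the last of which left Hoxa10 as the single Hox call. The log2 fold change stayed between 1.59 and 2.41 for Hoxb3 and between 3.47 and 7.64 for Hoxb8 when each library was left out.

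The other HoxB genes did not pass the test. Hoxb4 had 22.6 and 32.4 CPM in stimulated KO, against 13.6 and 11.2 CPM in stimulated WT, a log2 fold change of 1.17 ± 0.34 (edgeR adjusted p = 0.143). Hoxb5, which in mouse marrow marks long-term stem cells, had 13.5 and 14.5 CPM in stimulated KO, against 4.98 and 4.61 CPM in stimulated WT. Hoxb2 had 9.36 and 17.9 CPM in stimulated KO, against 4.65 and 6.26 CPM in stimulated WT. In these 3 genes, too, both KO libraries lay above both WT libraries. Hoxb6, with 3.58 and 5.29 CPM in stimulated KO, against 0 and 3.95 CPM in stimulated WT, overlapped, and Hoxb9 had 10 counts in KO and 1 in WT.

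No HoxA gene passed the test. Hoxa9 had 92.8 and 115 CPM in stimulated KO, against 81.0 and 109 CPM in stimulated WT, and the groups overlapped. Hoxa10, another posterior HoxA gene, had 41.0 and 109 CPM in stimulated KO, against 19.6 and 48.4 CPM in stimulated WT, also overlapping. Hoxa5 had 28.6 and 26.4 CPM in stimulated KO, against 14.3 and 20.1 CPM in stimulated WT, with no overlap and an edgeR adjusted p of 0.413. Hoxa7 was the single tested gene with both KO libraries below both WT libraries, at 34.2 and 30.4 CPM in stimulated KO against 40.5 and 38.2 CPM in stimulated WT. Hoxa3 had 0.826 and 9.92 CPM in stimulated KO, against 2.99 and 4.94 CPM in stimulated WT. Hoxc6 had 0.551 and 3.31 CPM in stimulated KO, against 3.98 and 1.98 CPM in stimulated WT, and both genes overlapped.

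Over the 13 tested genes, 6 had both KO libraries above both WT libraries (Hoxa5, Hoxb2, Hoxb3, Hoxb4, Hoxb5 and Hoxb8) and 1 had both below (Hoxa7), where 19.5% and 22.6% of all genes tested did so. The fold change was above 0 for 11 of 13, with a median log2 value of 1.16, where 49.98% of all genes tested were above 0. A gene passes the filter on low counts through the group where it is high, so these 13 do not stand for all 39 genes.

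**Figure D4:**
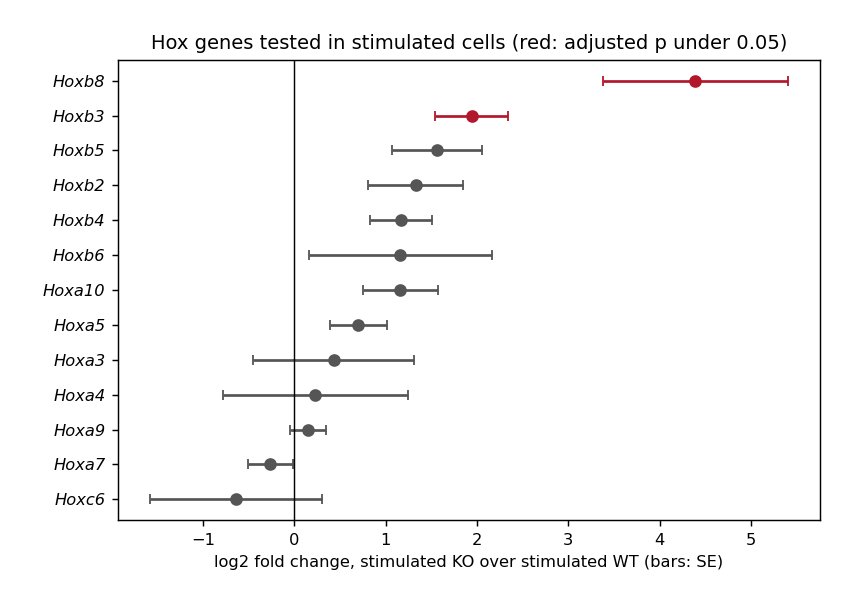
Log2 fold change (stimulated KO over stimulated WT) with its SE for the 13 Hox genes tested in the 4 stimulated libraries. Hoxb8 at 4.39 and Hoxb3 at 1.94, in red, passed an adjusted p of 0.05, and the HoxB genes all lie right of 0.

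The HoxB share of HoxA and HoxB counts gives the same comparison within a library, where depth and scaling cancel. It was 28.5% and 28.1% in stimulated KO, against 17.1% and 12.3% in stimulated WT. The exact 95% binomial intervals, for counting error only, were 25.8% to 31.4% and 25.6% to 30.7% in KO, and 14.2% to 20.4% and 10.1% to 14.9% in WT. In fresh cells the order of the genotypes was the other way round. The share was 39.6% and 15.3% in old fresh KO, against 45.9% and 48.3% in old fresh WT, and 6.68% and 17.5% in young fresh KO, against 29.3% and 23.8% in young fresh WT. With 2 libraries a group these shares have no test of their own.

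**Figure D5:**
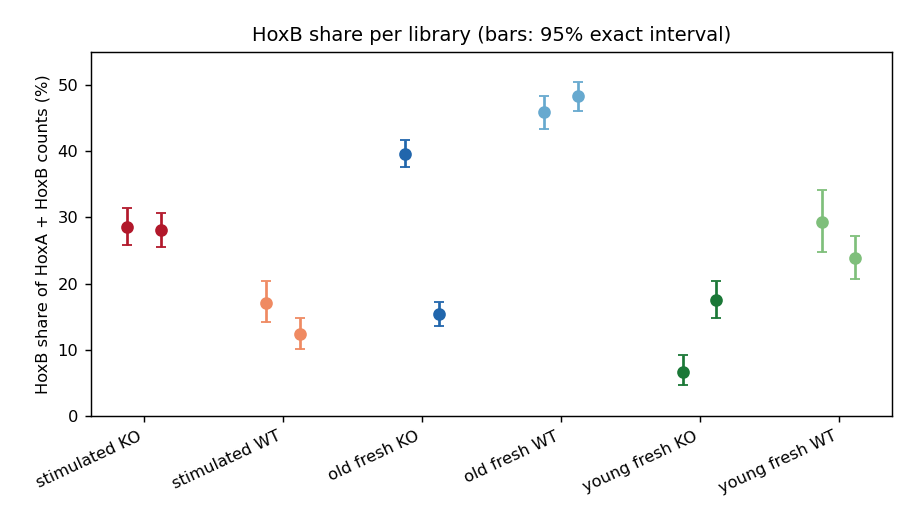
HoxB share of the counts of HoxA and HoxB genes (percent) in each library, by group, with the exact 95% binomial interval. KO libraries lie above WT libraries in stimulated cells, at 28.5% and 28.1% against 17.1% and 12.3%, and below them in fresh cells of both ages.

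Marker genes of other cells and of stem cells were counted in the same libraries. The 17 markers of mature blood lineages summed to 805 to 977 CPM in stimulated KO, against 942 to 1540 CPM in stimulated WT. Most of this was S100a8, at 684 and 523 CPM in stimulated KO and 612 and 988 CPM in stimulated WT. S100a9 followed, at 215 and 169 CPM in KO and 217 and 363 CPM in WT. Cd3e, Cd4, Cd8a and Ms4a1 were at 0 in all libraries. Of 8 lineage markers tested, 7 had a log2 fold change below 0 and 1 above, and 0 were called. Over all genes tested 49.98% were above 0. Stroma markers summed to 15.2 to 19.6 CPM in stimulated KO, against 31.9 to 44.8 CPM in stimulated WT. Most of that was Pdgfrb, at 15.7 and 8.26 CPM in stimulated KO, against 25.2 and 44.2 CPM in stimulated WT, and Col3a1, Lum and Lepr were at 0 in all 4 libraries. The 8 markers of stem and progenitor cells summed to 1594 to 1620 CPM in stimulated KO, against 1560 to 1607 CPM in stimulated WT. Among them Mecom, a stem cell transcription factor, rose (log2 1.16 ± 0.25, edgeR adjusted p = 0.0314), and Cd34, which rises as long-term stem cells become progenitors, fell (log2 -0.78 ± 0.16, edgeR adjusted p = 0.0242). Both calls were lost in the fit of 12 libraries and without KO replicate 4, and that of Mecom also without KO replicate 3 or WT replicate 2. The part of cell makeup in the HoxB values was not tested.

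Partners of Hox proteins were also counted. Over all 10494 genes tested in stimulated cells, 1.23% were called and 0.762% were called higher. Of 9 tested TALE genes in stimulated cells, 2 rose and 0 fell. Meis2, which encodes a TALE partner of Hox proteins, had 4.41 and 6.28 CPM in stimulated KO, against 0 and 0 CPM in stimulated WT (edgeR adjusted p = 0.0381). With 3 counts over the WT group as the floor it was at least 10.6-fold higher, for counting error only. Of 19 genes of MLL-type activators, which keep Hox genes active, 1 rose, namely Mllt3, with 81.3 and 141 CPM in stimulated KO, against 52.1 and 39.9 CPM in stimulated WT (log2 1.29 ± 0.25, edgeR adjusted p = 0.0207). Of 26 tested Polycomb genes, which repress Hox genes, 0 were called by edgeR, DESeq2 or voom, and 2 had an unadjusted p under 0.05 in edgeR. The median log2 fold change was 0.61 for TALE genes, 0.03 for MLL-type activators and 0.06 for Polycomb genes, beside 0 for all genes tested. None of the 3 calls held in the fit of 12 libraries or without KO replicate 4, and that of Meis2 was lost in voom and without any 1 of the 4 libraries.

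In old fresh cells no Hox gene differed between KO and WT by the test. Of 15 Hox genes tested 0 passed, as did 0% of the 10680 genes, where 428 genes and 1 Hox gene had an unadjusted p under 0.05. DESeq2 called 105 genes and voom 22, and neither called a Hox gene. The Hox gene under that p in edgeR was Hoxb3, with 1.62 and 1.24 CPM in old fresh KO, against 22.3 and 79.1 CPM in old fresh WT (log2 -5.10 ± 2.32, edgeR adjusted p = 1). Both KO libraries were below both WT libraries, the opposite order to stimulated cells. Hoxb2 had 16.9 and 11.8 CPM in old fresh KO and 30.0 and 50.3 CPM in old fresh WT, also apart. Hoxa3, an anterior HoxA gene, had 49.3 and 29.7 CPM in old fresh KO, against 1.06 and 22.5 CPM in old fresh WT (log2 1.76 ± 2.25, edgeR adjusted p = 1). Hoxa7 had 3.70 and 29.3 CPM in old fresh KO and 46.4 and 27.3 CPM in old fresh WT, and overlapped (log2 -1.14 ± 1.54, edgeR adjusted p = 1). Without overlap, 1 of 15 genes was higher in KO (Hoxa3) and 3 were lower (Hoxb2, Hoxb3, Hoxb6), where 16.5% and 16.7% of all genes tested were.

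The remaining genes overlapped between the genotypes in old cells. Hoxa9 had 44.9 and 128 CPM in old fresh KO and 94.4 and 102 CPM in old fresh WT. Hoxa10 had 153 and 77.8 CPM in old fresh KO and 86.4 and 130 CPM in old fresh WT. Hoxb8 had 78.6 and 16.1 CPM in old fresh KO and 76.1 and 62.9 CPM in old fresh WT. For each of these the 2 KO libraries were on either side of a WT library. Hoxb4 had 50.9 and 10.1 CPM in old fresh KO and 47.5 and 31.2 CPM in old fresh WT, Hoxb5 had 9.25 and 13.8 CPM in old fresh KO and 9.28 and 14.7 CPM in old fresh WT, and Hoxa5 had 39.1 and 28.3 CPM in old fresh KO and 5.83 and 28.5 CPM in old fresh WT. Hoxb9 and Hoxc6 were split within each genotype. Hoxb9 had 40.01 and 0 CPM in old fresh KO and 1.59 and 37.8 CPM in old fresh WT, and Hoxc6 had 7.86 and 0 CPM in old fresh KO and 0 and 8.69 CPM in old fresh WT.

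Young fresh cells gave no call either. Of 15 Hox genes tested 0 passed, as did 0% of all genes, where 519 genes and 1 Hox gene had an unadjusted p under 0.05. DESeq2 called 137 genes and voom 0, none of them a Hox gene. The Hox gene under that p in edgeR was Hoxb2, with 0 and 0 CPM in young fresh KO and 22.5 and 1.14 CPM in young fresh WT (edgeR adjusted p = 0.961). With 3 counts over the KO group as the floor it was at least 14.7-fold lower, for counting error only. This limit rests on young fresh WT replicate 1, the library with no Xist, which held 36 of the 38 WT counts, and without it no limit can be given. Hoxc6 had 35.1 and 10.5 CPM in young fresh KO and 0 and 0 CPM in young fresh WT (edgeR adjusted p = 0.961). For counting error only it was at least 25.7-fold higher, with 69 of its 89 counts in KO replicate 3. Hoxb4 had 2.55 and 9.40 CPM in young fresh KO and 21.9 and 59.9 CPM in young fresh WT (log2 -2.77 ± 1.52, edgeR adjusted p = 0.961). Without overlap, 1 gene was higher in KO (Hoxc6) and 3 were lower (Hoxa7, Hoxb2, Hoxb4), where 14.7% and 17.3% of all genes tested were.

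The other young fresh values show how far replicates lay apart. Hoxa7 had 21.4 and 8.36 CPM in young fresh KO and 40.7 and 24.5 CPM in young fresh WT. Hoxa9 had 153 and 116 CPM in young fresh KO and 18.8 and 127 CPM in young fresh WT. Hoxa10 had 13.8 and 130 CPM in young fresh KO and 73.2 and 137 CPM in young fresh WT. Hoxa9 and Hoxa10 each had 1 library far below the other of its group. Hoxa5 had 45.8 and 19.3 CPM in young fresh KO and 21.3 and 0 CPM in young fresh WT, and Hoxa3 had 0 and 35.5 CPM in young fresh KO and 1.25 and 0 CPM in young fresh WT. Hoxb3 had 11.2 and 17.2 CPM in young fresh KO and 0 and 14.8 CPM in young fresh WT, and Hoxb5 had 2.04 and 10.97 CPM in young fresh KO and 24.4 and 0 CPM in young fresh WT. Hoxb8 had 0 and 28.7 CPM in young fresh KO and 0 and 13.7 CPM in young fresh WT. All 5 of these overlapped between the genotypes.

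With age, Hoxb9, Hoxb2 and Hoxb8 had the smallest p-values among the described genes, and none passed. Of 15 Hox genes tested 0 were called, where 2.72% of the 10680 genes were, and 2 Hox genes had an unadjusted p under 0.05. Hoxb9 had 305 counts in the 4 old libraries and 0 in the 4 young fresh libraries (edgeR adjusted p = 0.177). With 3 counts over the young group as the floor it was at least 45.2-fold higher, for counting error only. The old counts came mainly from 1 library of each genotype. Hoxb2 had a log2 fold change of 5.07 ± 1.85 (edgeR adjusted p = 0.21), at 11.8 to 50.3 CPM in old libraries and 0 to 22.5 CPM in young fresh ones. This value averages the 2 genotypes, and its KO part is set against 0 CPM in young fresh KO, so its size is not firm. Hoxb8 had a log2 fold change of 2.52 ± 1.27 (edgeR adjusted p = 0.409). For Hoxb8 the 4 old libraries held 16.1 to 78.6 CPM and the 4 young fresh ones 0 to 28.7 CPM. Hoxa9 (log2 -0.12 ± 0.53) and Hoxa10 (log2 0.35 ± 0.55) gave changes smaller than their SEs.

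The age values depend on the tool. DESeq2 called Hoxb9 (adjusted p = 0.0136) and Hoxb2 (adjusted p = 0.0167) higher in old cells. With edgeR, Hoxb8 was called without young fresh WT replicate 2 or without young fresh KO replicate 4, and Hoxb9 without old fresh WT replicate 1 or without old fresh KO replicate 4. Markers of mature blood cells moved with age, at 368 to 3080 CPM in old libraries and 4987 to 9558 CPM in young fresh libraries, and Ngp, Camp, S100a8 and S100a9, genes of neutrophil granules and their precursors, fell with age (edgeR adjusted p of 0.00164 or less). Their part in the Hox values was not tested, and age cannot be told apart from depth and library set. Sex is not matched here either, since young fresh WT replicate 1, the library with no Xist, is among the young libraries.

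Over all 10680 genes tested, 2.72% were called with age. Some MLL-type and Polycomb genes were among them, in the same fit of 8 fresh libraries. On simulated data this fit and that of 12 libraries made more false calls than the threshold allows for, which bears on each gene called with age or stimulation. Of 19 MLL-type activators 1 rose, Kmt2c (log2 1.83 ± 0.41, edgeR adjusted p = 0.0176), a histone methyltransferase. The 2 that fell were Psip1 (log2 -1.42 ± 0.30, edgeR adjusted p = 0.0111), which tethers MLL complexes to chromatin, and Mllt10 (log2 -1.72 ± 0.43, edgeR adjusted p = 0.0346). Of 26 tested Polycomb genes 1 fell, Suz12 (log2 -2.51 ± 0.58, edgeR adjusted p = 0.0194), a core subunit of PRC2, and 1 rose, Rbbp4 (log2 0.78 ± 0.20, edgeR adjusted p = 0.0382). The call of Suz12 was lost in voom, that of Mllt10 without young fresh KO replicate 3 or old fresh KO replicate 4, and that of Rbbp4 without young fresh WT replicate 2 or old fresh KO replicate 3. Of 9 tested TALE genes 0 were called by edgeR and 0 by voom, 2 by DESeq2, and 2 had an unadjusted p under 0.05 in edgeR. The median log2 fold change was 0.47 for MLL-type activators, -0.35 for Polycomb genes, 0.39 for TALE genes and 0.39 for Hox genes, beside 0.05 for all genes tested.

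Cytokine stimulation of young cells called no Hox gene. Of 15 tested 0 passed, where 2.81% of the 11548 genes did, and 1 Hox gene had an unadjusted p under 0.05. DESeq2 and voom also called 0 of the 15. Hoxb2 had 4.65 to 17.9 CPM in the 4 stimulated libraries and 0 to 22.5 CPM in the 4 young fresh ones (log2 3.63 ± 1.48, edgeR adjusted p = 0.222). This log2 value averages the 2 genotypes and its size is not firm, since young fresh KO was at 0 CPM. The Hoxb2 mean was 13.6 CPM in stimulated KO, and in WT it was 5.45 CPM stimulated and 11.8 CPM fresh. Hoxb8 had 0 to 8.92 CPM in stimulated libraries and 0 to 28.7 CPM in young fresh ones (log2 -2.56 ± 1.40, edgeR adjusted p = 0.368), and the sign turned, to 1.17 without young fresh WT replicate 2 and 1.69 without young fresh KO replicate 4. Hoxb9 had 11 counts in stimulated libraries and 0 in young fresh ones, at least 2.09-fold higher for counting error only (edgeR adjusted p = 0.503). Hoxa9 gave a log2 fold change of 0.00 ± 0.47, at 81.0 to 115 CPM in stimulated libraries and 18.8 to 153 CPM in young fresh ones. The median over all genes tested was shifted by 0.27 on the log2 scale, and that over the 15 Hox genes was 0.24.

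Among TALE genes Meis1, a leading partner of HOXA9, fell with stimulation, at 82.0 to 150 CPM in stimulated libraries against 178 to 303 CPM in young fresh ones (log2 -1.09 ± 0.23, edgeR adjusted p = 0.0164). It was 1 of 10 tested, and the call was lost without young fresh WT replicate 2 or without any 1 of the stimulated libraries except WT replicate 1. Of 26 Polycomb genes 1 rose, Rbbp4 (log2 0.64 ± 0.15, edgeR adjusted p = 0.0336), lost with RLE scaling and in 6 of the fits that left out a library. Of 19 MLL-type activators 0 were called by edgeR, 2 by DESeq2 and 1 by voom, with 4 at an unadjusted p under 0.05 in edgeR. Over all 11548 genes tested with stimulation, edgeR called 2.81%. Mature blood markers summed to 805 to 1540 CPM in stimulated libraries and 4987 to 9558 CPM in young fresh ones, and their part was not tested.

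The differences between genotype effects were tested directly. For stimulated minus young fresh, 0 of 15 Hox genes and 0% of 11548 genes passed, with 577 genes and 2 Hox genes, Hoxb2 and Hoxb4, at an unadjusted p under 0.05. The KO effect on Hoxb4 differed by a log2 value of 3.91 ± 1.65 (edgeR adjusted p = 0.885), with both KO libraries above WT in stimulated cells and below WT in young fresh cells. For old minus young among fresh cells, 0 of 15 Hox genes and 0% of 10680 genes passed, with 587 genes and 1 Hox gene, Hoxc4, at an unadjusted p under 0.05. DESeq2 and voom called 0 Hox genes for either difference. The KO effect on Hoxb3 differed by -6.03 ± 2.99 on the log2 scale (edgeR adjusted p = 0.907).

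Reads of neighbouring transcripts could enter some of these values. In GENCODE M21 exons of Hoxb2 and Hoxb3 overlap the antisense gene Hoxb3os, those of Hoxb5 overlap Hoxb5os, and those of Hoxa3 and Hoxa7 overlap Hoxaas3. The strand setting of the counting is not given in the sources used here, so sense and antisense reads of these genes are uncertain. On the same strand, Hoxc5 and Hoxc10 share 166 exon bases, Hoxd3 and Hoxd4 share 388, and Hoxa9 and Mir196b share 85. Whether shared bases bear on the 0 counts of Hoxd3 and Hoxd4 was not tested. Of 18 other transcripts of the clusters in the files, 15 were at 0 in all libraries, and the counted ones were Hotairm1, Hoxaas3 and Hoxb5os. Hoxb5os had 0.551 and 7.60 CPM in stimulated KO, against 5.64 and 0.989 CPM in stimulated WT, and did not follow the order of Hoxb5.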

How the data were processed

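QuantSeq 3′ FWD libraries were sequenced, per the labels' protocols. The authors deposited raw read counts for each gene symbol. The submitters' processing notes name mm10, HISAT2 2.2.1, HTSeq 0.9.1 and DESeq2 1.34.0. Annotation, strand setting and filters are not given in the sources used here.

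The tests used edgeR 4.0.16 in R 4.3.3 (quasi-likelihood test, TMM scaling, filterByExpr at a count of 10 and a total of 15, Benjamini-Hochberg adjustment over all genes of a contrast, threshold 0.05), with limma 3.58.1 and DESeq2 1.42.0 as alternatives. Stimulated KO and WT were fitted on their 4 libraries with 2 residual degrees of freedom, fresh groups on 8 libraries with 4, and contrasts across both on 12 with 6. The common dispersion was 0.033, 1.08 and 0.705 in these fits, and precision was thus lower in fresh cells. The members, lists, fits and the naming rule (every member, with full values from a mean of 5 CPM, and called list genes) were chosen with earlier results of these data known. Alternatives were RLE scaling, no filter, DESeq2, voom with a weight per group, other sets of libraries, a replicate block and each library left out in turn. Replicate numbers showed no pairing of samples. The differences in log2 CPM between the 2 replicates of a group were compared between groups of the same genotype. These differences correlated at -0.009 to 0.011 over 9693 genes. Folds against a group at 0 used 3 counts over the group as the floor. Such limits hold for counting error only and do not cover the spread between replicates. For Hoxb2 with age and with stimulation the log2 value of edgeR is given in place of such a fold. The tests were tested on simulated data, where a first version with changes of modest size found none of them in comparisons with fresh libraries. A second version had larger changes there, and a dispersion that followed a gene's level in place of a common value per group. It found some of the changes, with more false calls than the threshold allows for. Which of these differences between the versions mattered was not tested. A missing call there does not show that a gene did not change, and a call may be false. Positions (all 39 members matched) and promoters came from RefSeq tables on GRCm38.p6. A few genes that met the naming rule are not reported here.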

Additional observations from a re-analysis of the deposited data

Results flagged for a closer look

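Several Hox genes had all libraries of a comparison moving one way in one setting and the opposite way in another. Hoxb2 averaged 13.6 CPM in stimulated KO, with 5.45 CPM in stimulated WT, but 0 CPM in young fresh KO and 11.8 CPM in young fresh WT. This young fresh WT mean rests mainly on replicate 1, the library with no Xist. The difference between genotype effects had an edgeR adjusted p of 0.885. Hoxb4 averaged 27.5 CPM in stimulated KO, with 12.4 CPM in stimulated WT, but 5.98 CPM in young fresh KO and 40.9 CPM in young fresh WT, with the same adjusted p. The same Hoxb4 values mean that stimulated libraries lay above fresh ones in KO and below them in WT. Hoxc6 was lower with stimulation in KO, at 1.93 CPM stimulated and 22.8 CPM fresh, and higher in WT, at 2.98 CPM stimulated and 0 CPM fresh (edgeR adjusted p = 0.885).

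In old fresh cells the order of the genotypes was opposite to that in stimulated cells for 2 genes, and this difference was not tested. Hoxb2 averaged 14.3 CPM in old fresh KO and 40.2 CPM in old fresh WT. Hoxb3 averaged 1.43 CPM in old fresh KO and 50.7 CPM in old fresh WT, while its means were 27.7 CPM in stimulated KO, with 7.28 CPM in stimulated WT. With age Hoxb3 was lower in KO, at 1.43 CPM old and 14.2 CPM young, and higher in WT, at 50.7 CPM old and 7.41 CPM young (edgeR adjusted p of the difference 0.907). These patterns were found by looking through the 12 members averaging 5 CPM or more, with 2 libraries a group. How many of all genes show such opposite orders was not computed, so the patterns cannot be set against that share. Within a single comparison of KO and WT, 14.7% to 22.6% of all genes tested were apart in a given direction.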

How the results depend on the processing

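The count of Hox genes called in stimulated KO against WT was 2, and it was 1 with DESeq2, 0 with limma voom and 0 with all 12 libraries. It was 2 with RLE scaling and 3 with no filter, and 0 to 2 when each library was left out. The count for old against young was 0 in the 8 fresh libraries, 2 with DESeq2 and 0 to 1 when each library was left out. The other 5 comparisons gave 0 Hox calls in every alternative run. The log2 fold change of Hoxb8 with stimulation lay between -4.14 and 1.69 when each library was left out, and reversed to 1.17 and 1.69 without young fresh WT replicate 2 and young fresh KO replicate 4. With the replicate block the counts of Hox genes called stayed at 0 in all 6 comparisons that allow it. The block was not fitted in the 4 stimulated libraries, where its terms would leave no residual degrees of freedom. The cause of these changes was not tested. Scaling by plain totals gave a summed HoxA level of 276 CPM in old fresh KO and a summed HoxB level of 35.04 CPM in stimulated WT. At equal depth, 9.90 Hox genes were expected in young fresh WT replicate 2 and 12.96 in stimulated WT replicate 1. Depth limits genes under 5 CPM, which rest on few counts.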
